A study of Homo sapiens with 8 samples.

Results

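The 10 genes described here encode endothelin 1 (EDN1), the endothelial cell-specific molecule 1 (ESM1) and 8 secreted growth factors or related ligands: VEGFA, VEGFC, ANGPTL4, HBEGF, AREG, EREG, FGF2 and PDGFA. They were found by symbol among the 19414 coding genes that each file lists, and all 10 were present. The set was chosen from measured values of these same libraries: EDN1 and ESM1 were picked out because they were very low in the libraries labelled MYC against those labelled WT, and the other 8 were added by function. Values that use the libraries labelled MYC are therefore given for the 10 genes as a description, with no test. The tests are on Zab over WT, MYC_Zab over Zab and MYC_Zab over WT. Of these, MYC_Zab over Zab shares no library with the comparison that led to the choice, while the other two share its WT libraries.

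The study measured newly made RNA by transient transcriptome sequencing (TT-seq) in U2OS, a human osteosarcoma cell line, after cells had built the nucleoside analogue 4-thiouridine (4-SU) into new transcripts. Its title speaks of MYC, of the FACT complex, which handles histones, and of DNA in the left-handed Z form. The 8 libraries fall into 4 genotypes with 2 libraries each: WT, Zab, MYC (labelled MYC O/E, overexpression) and MYC_Zab (labelled as Zab together with MYC O/E). All share the U2OS background, and the labels give no vector, promoter, induction time or clone for Zab or MYC. Outside the labels, Zαβ commonly refers to the domains with which the editing enzyme ADAR binds Z-form nucleic acids. Separate cultures are not stated for the 2 libraries of a genotype, and the p-values then reflect no more than the spread between these libraries, possibly a technical one.

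As background, the genes act as signals between cells. Endothelin 1 is a peptide that constricts vessels and acts through the receptors EDNRA and EDNRB, and ESM1, also called endocan, is a secreted proteoglycan best known from endothelium; both are also made by tumour cells. VEGFA and VEGFC drive the growth of blood and lymph vessels, and ANGPTL4 inhibits lipoprotein lipase. HBEGF, amphiregulin (AREG) and epiregulin (EREG) are made as membrane-bound precursors, are cut free by ADAM proteases and activate the EGF receptor. FGF2 binds FGF receptors together with heparan sulphate, and PDGFA activates the PDGF receptor alpha on mesenchymal cells.

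Since TT-seq reads new transcripts, the 250 bases before the start site are shown for 2 genes that were far lower in the libraries labelled MYC, EDN1 and ESM1, and for 2 that were lower by less, HBEGF and VEGFC. The sequences are those of RefSeq on GRCh38.p14, written 5′ to 3′ on the gene's strand, and 9 of the 10 genes were matched by symbol. The windows are chr6:12290111-12290360 on the plus strand for EDN1, chr5:54985594-54985843 on the minus strand for ESM1, chr5:140346604-140346853 on the minus strand for HBEGF and chr4:176792923-176793172 on the minus strand for VEGFC. Capitals mark the TATA box letters TATAAA and the GC box letters GGGCGG, each searched on both strands.
EDN1: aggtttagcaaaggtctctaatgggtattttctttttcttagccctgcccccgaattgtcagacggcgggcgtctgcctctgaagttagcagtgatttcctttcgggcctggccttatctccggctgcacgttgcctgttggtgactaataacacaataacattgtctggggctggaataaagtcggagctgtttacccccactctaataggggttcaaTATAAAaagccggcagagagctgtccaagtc
ESM1: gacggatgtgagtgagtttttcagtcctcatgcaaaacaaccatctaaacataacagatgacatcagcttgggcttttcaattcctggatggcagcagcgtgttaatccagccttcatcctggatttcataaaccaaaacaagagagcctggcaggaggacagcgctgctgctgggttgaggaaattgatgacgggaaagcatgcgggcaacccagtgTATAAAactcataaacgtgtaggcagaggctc
HBEGF: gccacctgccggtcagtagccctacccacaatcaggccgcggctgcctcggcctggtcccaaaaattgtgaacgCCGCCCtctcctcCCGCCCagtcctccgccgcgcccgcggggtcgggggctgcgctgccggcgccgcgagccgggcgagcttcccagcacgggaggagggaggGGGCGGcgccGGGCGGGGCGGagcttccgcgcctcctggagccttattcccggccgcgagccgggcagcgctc
VEGFC: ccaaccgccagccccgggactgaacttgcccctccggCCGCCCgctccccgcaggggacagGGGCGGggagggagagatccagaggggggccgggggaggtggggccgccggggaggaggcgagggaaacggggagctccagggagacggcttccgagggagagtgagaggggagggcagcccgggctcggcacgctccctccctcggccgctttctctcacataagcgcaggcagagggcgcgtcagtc

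TATAAA was found 31 bases before the start of EDN1 and 32 bases before that of ESM1, counted from the first base of the match, and neither window held GGGCGG. HBEGF held GGGCGG at 5 places and VEGFC at 2, and neither held TATAAA. The GC content was 49.2% for EDN1 and 47.6% for ESM1, against 76.4% for HBEGF, 74.0% for VEGFC and a median of 58.0% over all 35116 windows of this length. Of the 9 matched genes, 5 held TATAAA (EDN1, ESM1, ANGPTL4, AREG and EREG) and 6 held GGGCGG (VEGFC, ANGPTL4, HBEGF, AREG, FGF2 and PDGFA), where 10.7% and 42.6% of all windows did. None of the 9 held the E-box letters CACGTG, found in 6.34% of all windows, or the AP-1 letters TGANTCA, found in 6.57%. At such shares a count of 0 among 9 genes tells little. The TEAD letters GGAATG were in 1 (EREG), beside 11.9% of all windows. The alternating letters CGCGCG were in 2 (AREG and FGF2), beside 14.1%, and CACACA in 0, beside 14.3%. No letters of 1 motif overlap those of another in the 4 windows shown. For EDN1 3 start sites were listed and for PDGFA 4, and the one furthest along each gene was used. A match describes the letters only.

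Libraries held 1839960 to 4072059 recovered coding reads. Levels are in CPM, the share of a library's coding reads on a common total, after scaling by the trimmed mean of M values (TMM), which matches libraries on the bulk of genes. The deposited values carry a further factor per library, and on that scale the median of all genes was 0.47 (log2) for MYC over WT, -0.64 for Zab over WT and 0.89 for MYC_Zab over Zab. The 2 libraries labelled Zab stood apart in that coding reads made up 6.44 to 6.66 per 100 tags, against 13.1 to 13.8 in the other 6. MYC went against a label: it averaged 760 CPM in WT, 981 with Zab and 6568 with MYC, but 757 in the libraries labelled MYC_Zab. ADAR averaged 33735 CPM in WT and 32109 in MYC_Zab, against 551 in Zab and 453 in MYC. If Zab means the ADAR domains, which the labels do not say, the levels of ADAR go against the WT and Zab labels as well. The labels may thus not match the libraries, and every direction below is one between libraries labelled so. Of 10 mesenchymal and osteoblast markers VIM, SPARC, COL1A1 and RUNX2 averaged at least 5 CPM, while SP7 and TWIST1 had no read.

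EDN1 and ESM1 were low in Zab and very low in MYC, and in MYC_Zab they stood at the level of WT. EDN1 lies at chr6:12290594-12297427 on the plus strand of hg19. It stood at 26.4 and 32.4 CPM in WT and at 21.6 and 10.6 in Zab, against 1.55 and 0.492 in MYC and 28.1 and 27.6 in MYC_Zab. Both MYC libraries, with 6 and 2 reads of EDN1, lay below every other library, and both Zab libraries lay between them and the rest, while WT and MYC_Zab overlapped. ESM1, at chr5:54273695-54281421 on the minus strand, stood at 39.4 and 25.2 CPM in WT and at 14.4 and 9.03 in Zab, against 0.515 and 0 in MYC and 38.1 and 32.1 in MYC_Zab. Its order was the same as that of EDN1 below the overlapping WT and MYC_Zab libraries, with 2 reads and 0 reads in MYC.

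**Figure D1:**
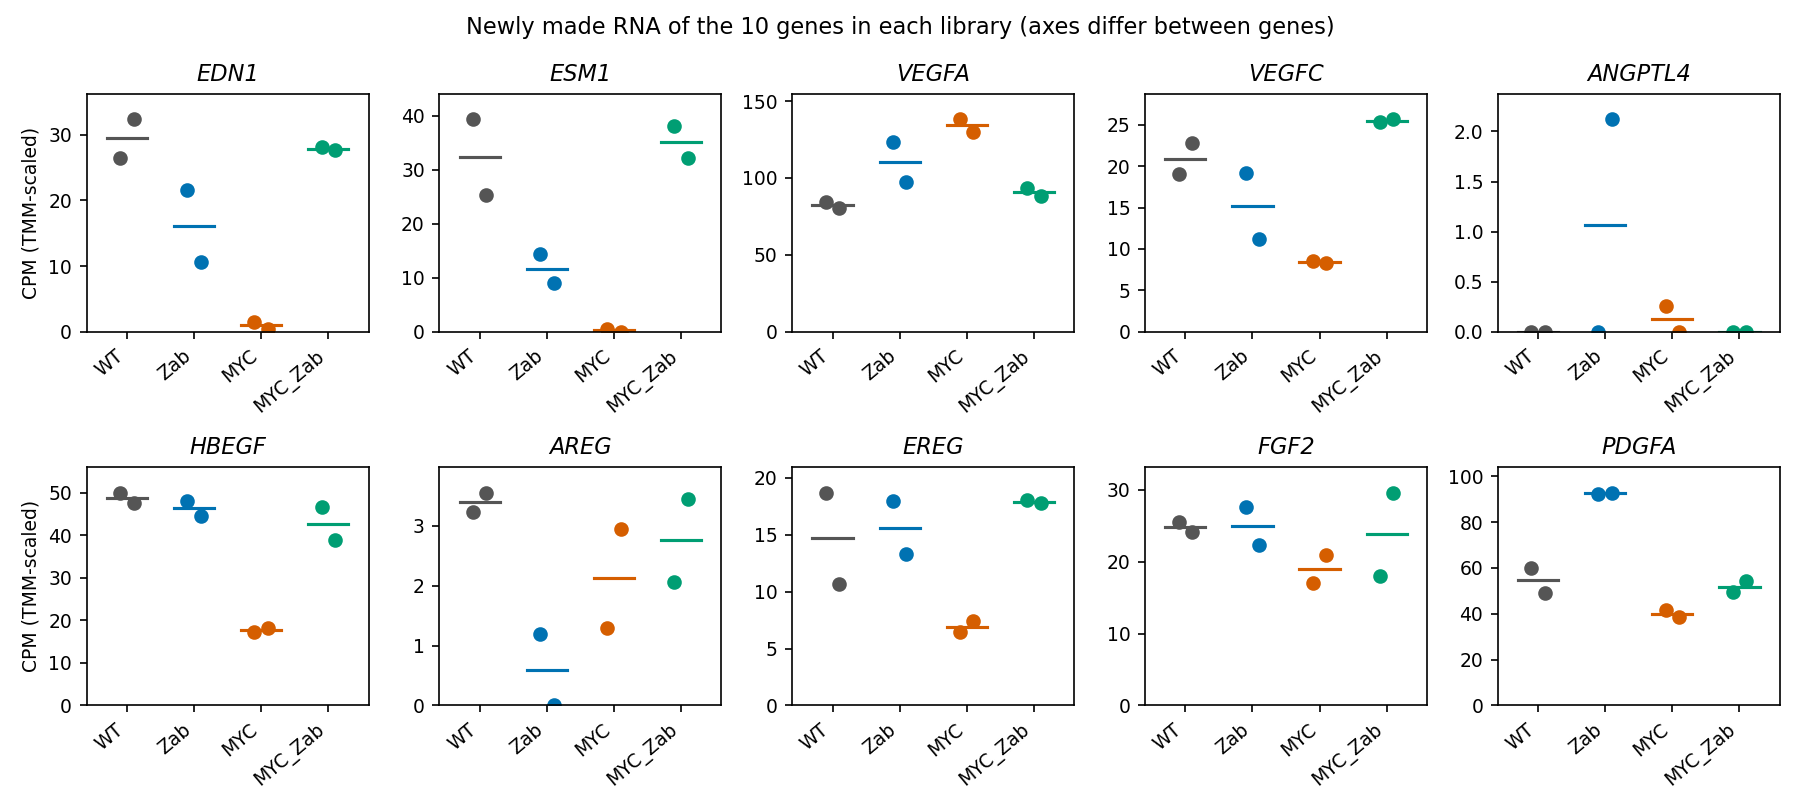
CPM after TMM scaling (linear axes from 0, which differ between genes) of the 10 genes in each library; points are libraries and the short lines the mean of the 2 libraries of a genotype. EDN1 and ESM1 lie near 0 in both MYC libraries, at most 1.55 and 0.515 CPM, while VEGFA is highest there, at 130 and 138 CPM.

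By mean CPM EDN1 was 28.9-fold lower in MYC than in WT, a log2 change of -3.96 ± 0.35 (SE) on the log2(CPM + 1) scale. The fold rests on 8 reads in MYC: it was 59.8 without the first MYC library and 19.0 without the second, and by summed reads 29.1 with a 95% counting interval of 14.4 to 68.4. ESM1 rested on 2 reads in MYC. Its ratio by summed reads was 130-fold, with such an interval of 35.4 to 1079, and its fitted change was -4.72 ± 0.35. Because low values were mostly even numbers of reads, as when both mates of a pair are counted, such intervals are narrower than intervals over fragments would be. The transcript of ESM1 that the authors' counting kept was 1943 bases long in MYC and 2091 bases in the other 6 libraries. In these bulk libraries, fewer cells making a transcript and less of it per cell cannot be told apart.

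In Zab over WT, with 23.8% of 11985 genes called higher and 25.9% called lower, 2 of the 9 genes kept were called higher and 3 lower. The 3 include AREG, which passed the filter on low values only through libraries other than Zab. On the deposited scale, where the median of all genes was -0.64, 0 of the 9 were higher and 6 lower. With library totals in place of TMM the counts were 1 and 3. The shares of all genes called under these scalings are not given here. EDN1 fell by 0.90 ± 0.35 on the log2 scale (limma, adjusted p = 0.0321) and ESM1 fell by 1.39 ± 0.35 (adjusted p = 0.00161). For ESM1 this is a mean of 11.7 ± 3.79 CPM in Zab against 32.3 ± 9.97 in WT (SD, n = 2 each). The call for ESM1 was lost without the first WT library (-1.09, adjusted p = 0.0612). That for EDN1 was lost without the first WT (-1.05, 0.0720), the second WT (-0.77, 0.191), the second Zab (-0.43, 0.336), the first MYC_Zab (0.0536) or the second MYC_Zab library (0.0531). It was also lost by DESeq2 (0.0556), with a pseudocount of 0.25 (0.0709), with no filter on low values (0.0835) and with the WT and MYC_Zab pairs as 1 sample each (0.199).

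The same 2 genes were higher in MYC_Zab than in Zab, the comparison that the choice of genes did not use. It shares the 2 Zab libraries with Zab over WT. The MYC_Zab libraries were also close to those of WT, with a mean chi-square per gene of 2.91 to 3.01, against 32.4 to 48.1 between other genotypes. The 2 comparisons are thus not independent. ESM1 rose by 1.54 ± 0.35 (limma, adjusted p = 0.000608), from 11.7 to 35.1 CPM. EDN1 rose by 0.83 ± 0.35 (adjusted p = 0.0468), from 16.1 to 27.9 CPM, and all 4 libraries kept to that order. Of the 9 genes 3 were called higher and 1 lower, beside 25.8% and 24.1% of all genes. On the deposited scale 8 were higher and 0 lower, where the median of all genes was 0.89. The share of all genes called on that scale is not given here. The call for ESM1 held in every alternative run. That for EDN1 was lost without the first WT (0.84, adjusted p = 0.0660), the second WT (0.84, 0.0675), the second Zab (0.36, 0.424), the first MYC_Zab (0.82, 0.171) or the second MYC_Zab library (0.85, 0.157). It was also lost by DESeq2 (0.0771), with the smaller pseudocount (0.0936), with no filter (0.106) and with the pairs as 1 sample each (0.238).

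Endothelial markers were measured beside these genes, since both are best known from endothelium. The summed level of the 10 markers was 51.6 to 52.6 CPM in WT and 95.3 to 96.1 in Zab, against 33.5 to 37.1 in MYC and 54.3 to 60.8 in MYC_Zab. Most of it came from EGFL7, ROBO4 and ERG. The defining markers were at or near 0: over all 8 libraries CLDN5 had no read, PECAM1 had 2 reads, KDR 4 and CDH5 8. ROBO4, a guidance receptor of vessels, averaged 12.03 CPM in WT and 40.8 in Zab, against 0.761 in MYC and 12.9 in MYC_Zab. EGFL7 averaged 30.6, 46.0, 17.4 and 31.8 CPM in the same order. ERG went the other way, at 6.75, 5.59, 15.0 and 9.62 CPM. The endothelial sum was highest in Zab, where EDN1 and ESM1 were lower than in WT, and lowest in MYC, where both genes were lowest. Its part in their changes was not tested. The summed level of 8 epithelial markers, nearly all from the keratins KRT8 and KRT18, moved with genotype too. It was 1362 to 1395 CPM in WT and 2383 to 2519 in Zab, against 865 to 903 in MYC and 1260 to 1281 in MYC_Zab, while EPCAM had 60 reads, CDH1 18 and OVOL1 none over all 8 libraries. Its part in the changes of EDN1 and ESM1 was not tested. The sum of the 10 mesenchymal and osteoblast markers, mostly from VIM, moved as well. It was 3230 to 3333 CPM in WT and 3829 to 4017 in Zab, against 2346.5 to 2385 in MYC and 3016 to 3084 in MYC_Zab. RUNX2 went the other way, at means of 8.58, 3.46, 31.3 and 11.4 CPM in the same order. The part of this sum in those changes was not tested either. The lower coding share of the Zab libraries moves with every Zab comparison, and its part in them was not tested.

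VEGFA moved the other way from EDN1. This main inducer of blood vessel growth, at chr6:43737946-43754223 on the plus strand, stood at 84.2 and 80.4 CPM in WT and at 123 and 97.7 in Zab, against 138 and 130 in MYC and 93.8 and 88.6 in MYC_Zab. All 4 libraries of Zab and MYC lay above all 4 of WT and MYC_Zab. VEGFA was higher in Zab than in WT by 0.41 ± 0.12 (limma, adjusted p = 0.00508), but on the deposited scale the value was -0.22. The call was also lost with library totals in place of TMM (0.21, adjusted p = 0.144), without the second WT library (0.37, 0.0503), without the first Zab library (0.24, 0.120) and with the pairs as 1 sample each (0.0557). In MYC_Zab over Zab VEGFA was -0.27 ± 0.12 (limma, adjusted p = 0.0634), not called, and -0.43 without the second Zab library. On the deposited scale that value turned to 0.64 (1.94e-05). The transcript kept for VEGFA differed between libraries, with exon lengths of 3575 to 3646 bases.

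VEGFC, the main lymphatic ligand, was lower in MYC instead. It lies at chr4:177604689-177714076 on the minus strand, and stood at 19.0 and 22.8 CPM in WT and at 19.2 and 11.1 in Zab, against 8.499 and 8.37 in MYC and 25.3 and 25.7 in MYC_Zab. Both MYC libraries were the lowest and both MYC_Zab libraries the highest of the 8. It rose by 0.76 ± 0.28 in MYC_Zab over Zab (limma, adjusted p = 0.0286). That call was lost without the second Zab (0.40, adjusted p = 0.270), the first MYC_Zab (0.77, 0.114) or the second MYC_Zab library (0.75, 0.123), by DESeq2 (0.0893), with no filter (0.0539) and with the pairs as 1 sample each (0.163). In Zab over WT it was -0.48 ± 0.28 (adjusted p = 0.166), and it passed the threshold there without the first Zab library (-0.85, 0.0197) and on the deposited scale (-1.06, 0.00171).

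ANGPTL4, the lipase inhibitor at chr19:8429039-8439254 on the plus strand, was close to undetected. It had 4 reads in the second Zab library, 1 read in the first MYC library and none in the other 6, and was left out of the fit by the filter on low values. The level there was 2.12 and 0.258 CPM.

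Of the 3 EGF family ligands, HBEGF and EREG were lower in MYC than elsewhere. HBEGF, at chr5:139712428-139726188 on the minus strand, stood at 49.997 and 47.6 CPM in WT and at 47.9 and 44.6 in Zab, against 17.3 and 18.2 in MYC and 46.7 and 38.7 in MYC_Zab. Both MYC libraries lay far below the other 6, which were close to each other: Zab over WT was -0.077 ± 0.18 (limma, adjusted p = 0.758) and MYC_Zab over Zab -0.12 ± 0.18 (adjusted p = 0.621). For HBEGF the deposited scale gave calls in both, at -0.70 (0.00174) and 0.77 (0.000469). EREG, at chr4:75230862-75254464 on the plus strand, stood at 18.7 and 10.7 CPM in WT and at 18.0 and 13.3 in Zab, against 6.44 and 7.38 in MYC and 18.0 and 17.8 in MYC_Zab. Its 2 WT libraries differed more from each other than the genotypes other than MYC did, and Zab over WT was 0.12 ± 0.31 (adjusted p = 0.781), turning to -0.27 without the second WT library. MYC_Zab over Zab passed for EREG on the deposited scale alone (1.05, 0.00342).

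AREG was near the limit of detection. It stood at 3.23 and 3.56 CPM in WT and at 1.20 and 0 in Zab, against 1.29 and 2.95 in MYC and 2.06 and 3.46 in MYC_Zab, so the Zab libraries were the 2 lowest, with 2 reads in all against 20 in WT. The ratio of WT over Zab by summed reads was 6.01, with a counting interval of 1.46 to 53.0. AREG passed the filter on low values through libraries where it was higher, such as WT with 10 and 10 reads, and not through Zab. The filter thus favoured a low level in Zab, and the tests of AREG against Zab carry that choice. The fitted change of -1.57 ± 0.57 passed the threshold by limma (adjusted p = 0.0251) and not by edgeR (0.0706) or DESeq2 (0.119), nor without the first WT (-1.62, 0.0759), the second WT (-1.51, 0.0976) or the second Zab library (-1.004, 0.169), nor with the pairs as 1 sample each (0.123). In MYC_Zab over Zab it was 1.32 ± 0.57 (adjusted p = 0.0576), and past the threshold without the first Zab library (1.90, 0.0121), with library totals (1.42, 0.0371), on the deposited scale (1.66, 0.00696), with a pseudocount of 0.25 (2.28, 0.0446) and with no filter (1.33, 0.0478). AREG is uncertain in a further way: hg19 holds it at chr4:75310853-75320721 and again at chr4:75480629-75490480, both with 1222 exonic bases, and the second Zab library, the one with 0 reads, was counted on the second copy while the other 7 were counted on the first. The part of this in the low Zab level was not tested.

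FGF2, which lacks a classical signal peptide, differed little between genotypes after TMM scaling. It lies at chr4:123747863-123819391 on the plus strand, and stood at 25.5 and 24.2 CPM in WT and at 27.6 and 22.3 in Zab, against 17.0 and 20.9 in MYC and 18.0 and 29.6 in MYC_Zab. Its 2 MYC_Zab libraries spanned the whole range of the other genotypes apart from 17.0 CPM in MYC. Zab over WT was -0.0015 ± 0.25 (limma, adjusted p = 0.997) and MYC_Zab over Zab -0.095 ± 0.25 (adjusted p = 0.777). On the deposited scale both passed, at -0.61 (0.0348) and 0.78 (0.00622).

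PDGFA was highest in Zab. This ligand of the PDGF receptor alpha, at chr7:536896-559481 on the minus strand, stood at 60.0 and 49.1 CPM in WT and at 92.3 and 92.9 in Zab, against 41.5 and 38.4 in MYC and 49.5 and 54.3 in MYC_Zab. Both Zab libraries lay above and the MYC libraries below all others, and WT and MYC_Zab overlapped. It rose by 0.76 ± 0.15 in Zab over WT (limma, adjusted p = 0.000137), a call that was lost on the deposited scale (0.13, 0.454). It fell by 0.82 ± 0.15 in MYC_Zab over Zab (adjusted p = 4.89e-05), and on the deposited scale the value was 0.076. Leaving out any 1 library ended neither call.

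Of the 9 genes, 8 had a lower and 1 a higher fitted level in MYC than in WT, with a median of -0.94 against -0.0057 over all genes. On the deposited scale that median was -0.50 against 0.47 over all genes, and FGF2 and PDGFA turned to 0.097 and 0.052. At least 2-fold lower were 4 of them, EDN1, ESM1, HBEGF (-1.41 ± 0.18) and VEGFC (-1.21 ± 0.28), beside 10.8% of all genes. EREG (-0.94 ± 0.31) came just short of it, and AREG (-0.55 ± 0.57), PDGFA (-0.43 ± 0.15), FGF2 (-0.38 ± 0.25) and VEGFA (0.70 ± 0.12) lay further from it. On the deposited scale 2 were at least 2-fold lower and 1 higher. The share of all genes past 2-fold on that scale is not given here. Against MYC_Zab, 5 were at least 2-fold higher there than in MYC, namely EDN1 (3.89 ± 0.35), ESM1 (4.87 ± 0.35), VEGFC (1.49 ± 0.28), EREG (1.26 ± 0.31) and HBEGF (1.22 ± 0.18), beside 11.3% of all genes. Against Zab, 5 were at least 2-fold lower in MYC, namely ESM1 (-3.33 ± 0.35), EDN1 (-3.05 ± 0.35), HBEGF (-1.33 ± 0.18), PDGFA (-1.19 ± 0.15) and EREG (-1.06 ± 0.31), beside 12.4% of all genes. AREG was higher there (1.02 ± 0.57), on 2 reads in Zab. On the deposited scale 2 were lower and 2 higher, where the median of all genes was 1.11. VEGFC and FGF2 turned to 0.30 and 0.70 there. The 3 comparisons share the MYC libraries, which were used to choose EDN1 and ESM1, and nothing is read from these counts.

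**Figure D2:**
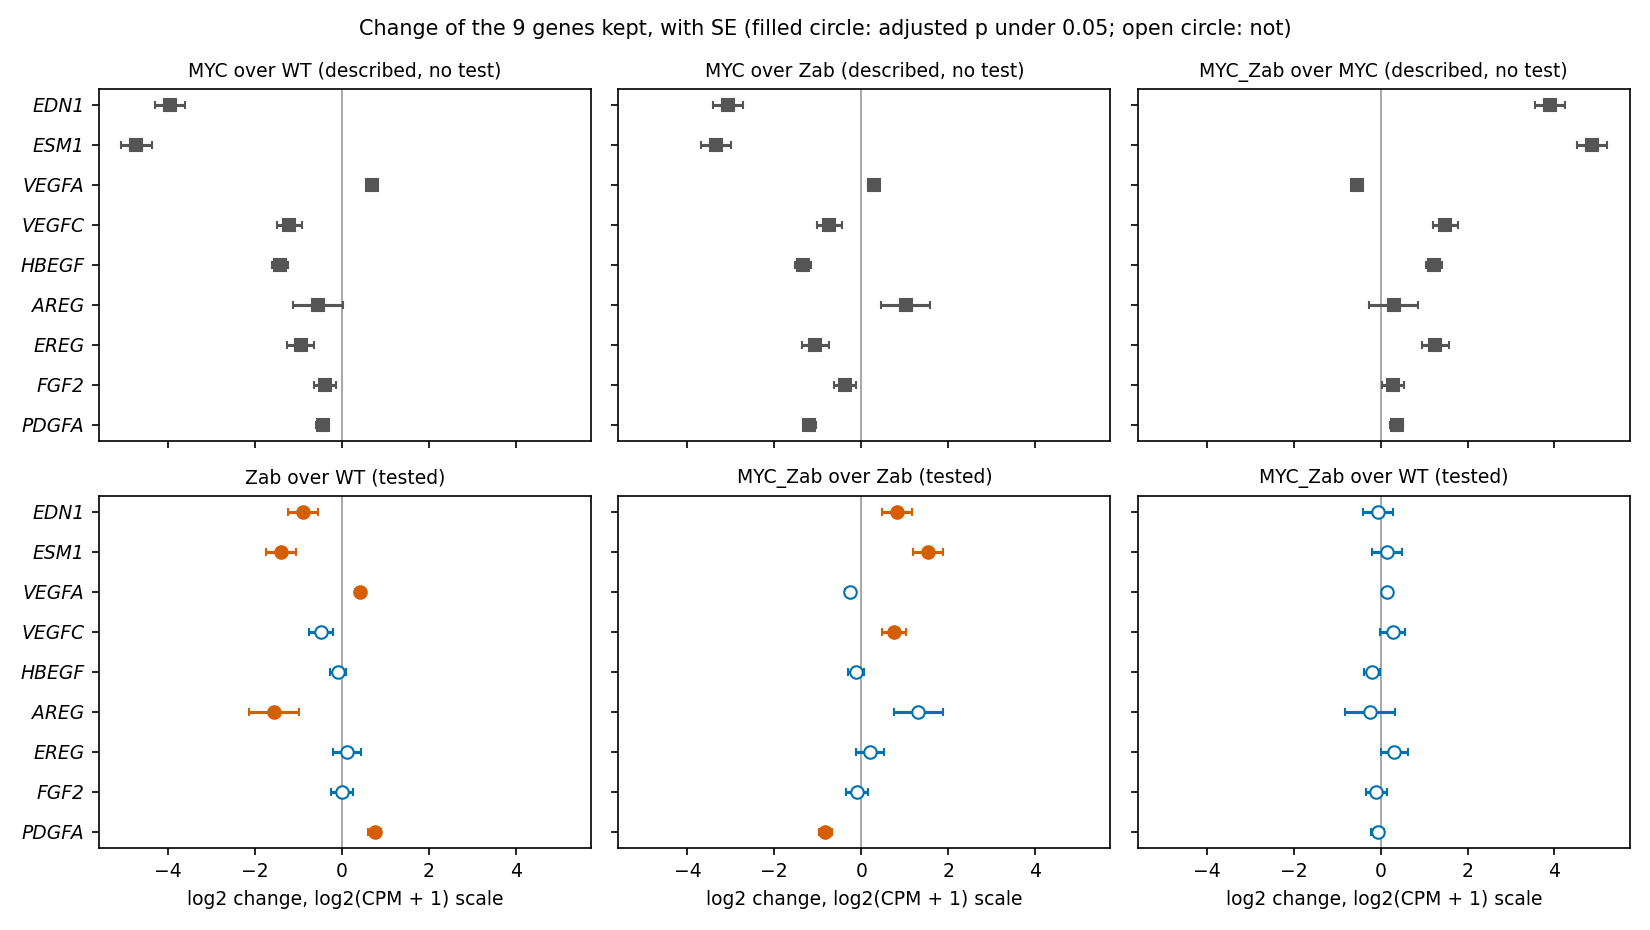
Fitted log2 change with its SE of the 9 genes kept, in 6 comparisons; squares are described without a test, filled circles passed an adjusted p of 0.05 and open circles did not. EDN1 and ESM1 reach -3.96 and -4.72 in MYC over WT, and no gene passes in MYC_Zab over WT. On the deposited scale VEGFA in Zab over WT and PDGFA in MYC_Zab over Zab change sign.

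MYC_Zab and WT did not differ detectably for these genes. Of the 9, 0 were called higher, beside 0.134% of all genes, and 0 lower, beside 0.467%. By limma 0 of them had an unadjusted p under 0.05, and edgeR and DESeq2 called 0. The fitted changes ran from -0.25 ± 0.57 for AREG to 0.32 ± 0.31 for EREG. EDN1 was -0.068 ± 0.35 and ESM1 0.15 ± 0.35. On the deposited scale VEGFA alone passed, at 0.42 (adjusted p = 0.0172). Over all genes the mean chi-square per gene was 2.91 to 3.01 between a WT and a MYC_Zab library, 2 to 2.06 between libraries of 1 genotype, and 32.4 to 48.1 between other genotypes.

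Levels of different genes can be set side by side per kilobase of exon. In WT these were 23.0 CPM per kilobase for VEGFA, 20.8 for HBEGF, 19.7 for PDGFA, 15.4 ± 4.77 (SD, n = 2) for ESM1, 14.5 ± 2.08 for EDN1 and 9.31 for VEGFC. FGF2 (3.70), EREG (3.19) and AREG (2.77) were the lowest of the 9. ESM1 and EDN1 did not differ beyond their spread. In MYC, ESM1 was at 0.133 and EDN1 at 0.503 CPM per kilobase.

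The 84 other genes of the same families that were listed by role, 45 ligands, 21 receptors and 18 processing, binding or feedback genes, were read in part: 40 passed the filter, and 15 had no read in any library. The ligand list follows family names, and it includes intracellular FGF family members such as FGF11. In MYC over WT 6 of the 40 rose and 10 fell (limma, adjusted p under 0.05), where 22.2% and 21.8% of all genes did. In Zab over WT 15 rose and 6 fell, where 23.8% and 25.9% of all genes did. In MYC_Zab over Zab 5 rose and 14 fell, where 25.8% and 24.1% did, and in MYC_Zab over WT 0 did either by limma, edgeR or DESeq2. In MYC_Zab over MYC 12 rose and 6 fell, where 21.9% and 22.6% of all genes did, and in MYC over Zab 5 rose and 14 fell, where 29.6% and 26.7% did. The median of the 40 was -0.15 for MYC over WT, 0.23 for Zab over WT and -0.12 for MYC_Zab over Zab, against -0.0057, -0.048 and 0.034 over all genes. These splits move with the scaling: on the deposited scale 16 rose and 8 fell in MYC over WT, 4 and 14 in Zab over WT, 24 and 0 in MYC_Zab over Zab, 10 and 9 in MYC_Zab over MYC, and 25 and 7 in MYC over Zab. The median of all genes on that scale was 0.47, -0.64, 0.89, -0.19 and 1.11 in the same order. With library totals the splits were 10 and 7 in Zab over WT and 7 and 9 in MYC_Zab over Zab. The shares of all genes called under these scalings are not given here. Without the second WT library the calls in Zab over WT were 13 in place of 21, and without the second MYC_Zab library those in MYC_Zab over Zab were 12 in place of 19.

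Of 12 genes tested from the ligand list, 4 fell in MYC over WT and 2 rose, where 21.8% and 22.2% of all genes did. FGF1 and FGF5, which act on FGF receptors, fell by 3.47 ± 0.38 (limma, adjusted p = 2.2e-08) and 3.07 ± 0.33 (1.51e-08). The family genes named here and below were picked largely for large called changes in MYC over WT or Zab over WT. Their p-values in these comparisons are thus a description. FGF1 stood at 17.1 and 16.0 CPM in WT and at 14.4 and 21.2 in Zab, against 0.258 and 0.984 in MYC and 18.8 and 9.87 in MYC_Zab, so that only the MYC libraries were apart from the others. FGF5 stood at 19.999 and 16.0 CPM in WT and at 16.8 and 19.1 in Zab, against 1.55 and 0.984 in MYC and 16.0 and 15.5 in MYC_Zab. Neither gene passed the threshold in Zab over WT, unlike NRG1, the neuregulin that binds ERBB3 and ERBB4. NRG1 stood at 59.4 and 41.6 CPM in WT and at 9.59 and 19.1 in Zab, against 8.499 and 12.1 in MYC and 62.6 and 50.8 in MYC_Zab. It was low in both Zab and MYC, at -1.80 ± 0.27 (adjusted p = 3.28e-06) and -2.19 ± 0.27 (1.51e-07) from WT, and it rose by 1.98 ± 0.27 in MYC_Zab over Zab (7.11e-07).

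PGF, a VEGF family ligand of FLT1, was higher than in WT in both Zab, by 1.17 ± 0.23 (limma, adjusted p = 0.000128), and MYC, by 0.87 ± 0.23 (0.00273). Its mean was 15.4 CPM in WT and 36.1 in Zab, against 29.1 in MYC and 19.8 in MYC_Zab. In MYC_Zab over Zab it fell by 0.83 ± 0.23 (0.00386), turning to 0.054 on the deposited scale, and the call was lost without the second MYC_Zab library (-0.70, 0.0596). PDGFC, another PDGF receptor ligand, averaged 17.1 CPM in WT and 9.44 in Zab, against 11.03 in MYC and 16.9 in MYC_Zab. It fell by 0.80 ± 0.32 in Zab over WT (0.0378) and rose by 0.81 ± 0.32 in MYC_Zab over Zab (0.0348). The first of these calls was lost without the second WT (-0.52, 0.312), the first Zab (-0.49, 0.230), the second MYC (0.0508), the first MYC_Zab (0.0561) or the second MYC_Zab library (0.0553). It was also lost by DESeq2 (0.130), with no filter (0.0778), with the pairs as 1 sample each (0.154) and in a fit of the 4 libraries compared (0.0758). The second was lost without the first Zab (0.50, 0.215), the first MYC_Zab (0.78, 0.145) or the second MYC_Zab library (0.84, 0.113), by DESeq2 (0.125), with no filter (0.0726) and with the pairs as 1 sample each (0.161).

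Of 13 receptors tested, 3 fell in MYC over WT and 2 rose, where 21.8% and 22.2% of all genes did. NRP1, a co-receptor for VEGFA, stood at 85.2 and 86.8 CPM in WT and at 132 and 126 in Zab, against 17.5 and 17.2 in MYC and 86.1 and 87.4 in MYC_Zab. It was lowest in MYC, at -2.24 ± 0.13 (limma, adjusted p = 1.51e-13), and highest in Zab, at 0.58 ± 0.13 (0.000855), the latter turning to -0.052 on the deposited scale. EGFR, the receptor of HBEGF, AREG and EREG, stood at 91.6 and 98.9 CPM in WT and at 69.5 and 88.7 in Zab, against 31.4 and 26.8 in MYC and 102 and 105 in MYC_Zab. EGFR fell by 1.68 ± 0.14 in MYC over WT (1.74e-10) and rose by 0.40 ± 0.14 in MYC_Zab over Zab (0.0225). The latter call was lost without the first Zab (0.23, 0.228), the first MYC_Zab (0.42, 0.0830) or the second MYC_Zab library (0.38, 0.120), by DESeq2 (0.0715) and with the pairs as 1 sample each (0.145).

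FGFR4 and FGFRL1 were the 2 receptors that rose in MYC over WT. FGFR4 averaged 22.3 CPM in WT and 40.6 in Zab, against 60.7 in MYC and 26.2 in MYC_Zab, and rose by 1.41 ± 0.20 in MYC (limma, adjusted p = 1.14e-06) and 0.84 ± 0.20 in Zab (0.000872). FGFRL1, an FGF receptor without a kinase domain, averaged 33.8, 58.3, 84.1 and 34.1 CPM in the same order, and rose by 1.31 ± 0.18 (1.28e-06) and 0.79 ± 0.18 (0.000775). The call for FGFRL1 in Zab was lost without the second WT library (0.49, 0.0541). FGFR1 averaged 68.5 CPM in WT and 95.1 in Zab, against 83.9 in MYC and 65.2 in MYC_Zab. It passed only in Zab over WT (0.47 ± 0.14, 0.00691; -0.15 on the deposited scale, and lost with library totals at 0.27, 0.111, and without the first WT library at 0.33, 0.131) among the comparisons with WT.

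PDGFRA, the receptor of PDGFA, averaged 9.82 CPM in WT and 4.52 in Zab, against 3.39 in MYC and 7.46 in MYC_Zab, and it fell in MYC over WT by 1.30 ± 0.39 (limma, adjusted p = 0.00829). That call was lost without the first MYC library (-1.20, 0.0651) and with the pairs as 1 sample each (0.0772). PDGFRA was lower in Zab than in WT by an adjusted p of 0.0421 (-0.97 ± 0.39). That call was lost without any 1 of 7 libraries: the first WT (-0.995, 0.118), the second WT (-0.96, 0.132), the second Zab (-0.91, 0.0862), the first MYC (0.0507), the second MYC (0.0527), the first MYC_Zab (0.0628) and the second MYC_Zab library (0.0591). It was also lost by edgeR (0.0758) and DESeq2 (0.143), with a pseudocount of 0.25 (0.0540), with no filter (0.0566), with the pairs as 1 sample each (0.169) and in a fit of the 4 libraries compared (0.0735). The receptors of endothelin 1 were low: EDNRA averaged 4.07 CPM in WT and 1.66 in Zab, against 4.50 in MYC and 3.0 in MYC_Zab and passed in none of these comparisons, and EDNRB had no read. KDR, the main VEGFA receptor of endothelium, had 4 reads.

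Of 15 processing, binding and feedback genes tested, 3 fell and 2 rose in MYC over WT, where 21.8% and 22.2% of all genes did. In Zab over WT 7 of them rose and 3 fell, where 23.8% and 25.9% of all genes did. SDC4, a heparan sulphate proteoglycan of the cell surface, stood at 258 and 242 CPM in WT and at 545 and 535 in Zab, against 143 and 135 in MYC and 251 and 266 in MYC_Zab. FURIN, a protease that cuts many precursors including those of VEGFC and PDGFA, stood at 147 and 141 CPM in WT and at 310 and 312 in Zab, against 88.1 and 109 in MYC and 157 and 153 in MYC_Zab. Both were high in Zab, by 1.11 ± 0.072 (limma, adjusted p = 7.17e-13) and 1.10 ± 0.097 (2.91e-10), and low in MYC, by -0.84 ± 0.072 (2.21e-10) and -0.55 ± 0.097 (3.53e-05). GPC1, another heparan sulphate carrier, averaged 168 CPM in WT and 268 in Zab, against 153 in MYC and 175 in MYC_Zab, and rose by 0.67 ± 0.090 in Zab over WT (6.65e-07). RHBDF1, an inactive rhomboid involved in the release of EGF family ligands, averaged 27.6, 32.5, 7.89 and 31.0 CPM in the same order, and fell by 1.71 ± 0.24 in MYC over WT (1.77e-06). On the deposited scale the calls of GPC1 (0.032), FGFR4 (0.22) and FGFRL1 (0.17) in Zab over WT and of FURIN in MYC over WT (-0.059) were lost.

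**Figure D3:**
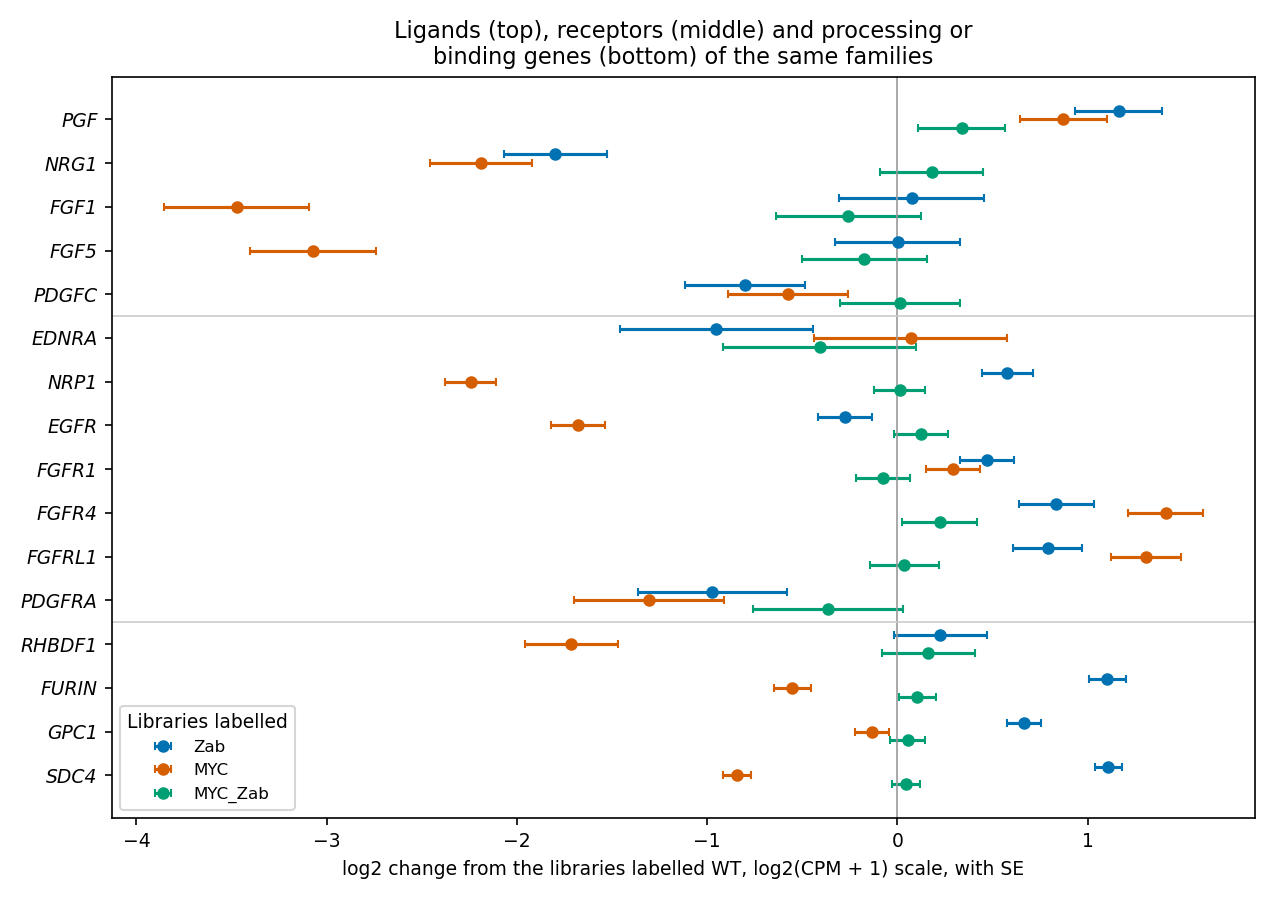
Fitted log2 change from WT, with its SE, of the 16 tested family genes named in the text, for Zab, MYC and MYC_Zab; the horizontal lines part ligands, receptors and processing or binding genes. FGF1, FGF5, NRP1, EGFR and RHBDF1 are far below 0 in MYC alone of the 3, NRG1 in Zab and MYC, and the MYC_Zab points lie near 0; NRP1 and FGFR1 in Zab are below 0 on the deposited scale.

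The genes whose 4 genotype means lay nearest to those of EDN1, by Euclidean distance of the log2(CPM + 1) means centred on their own mean, were NAV3 (distance 0.155), SLFN5 (0.182), TRIML2 (0.275), ECM1 (0.389) and IL7R (0.412), of 10760 genes ranked. NAV3 averaged 189 CPM in WT and 111 in Zab, against 13.2 in MYC and 205 in MYC_Zab. Nearest to ESM1 were MMP3 (0.563), SLFN5 (0.641), ANKRD1 (0.682), EDN1 (0.775) and NAV3 (0.841). MMP3, a matrix protease, averaged 288, 136, 7.02 and 281 CPM in the same order. At that distance of 0.775 EDN1 was the fourth nearest gene to ESM1, and ESM1 the 19th nearest to EDN1, which has more genes close to it. The likeness rests on 4 genotype means from 2 libraries each and is a description.

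**Figure D4:**
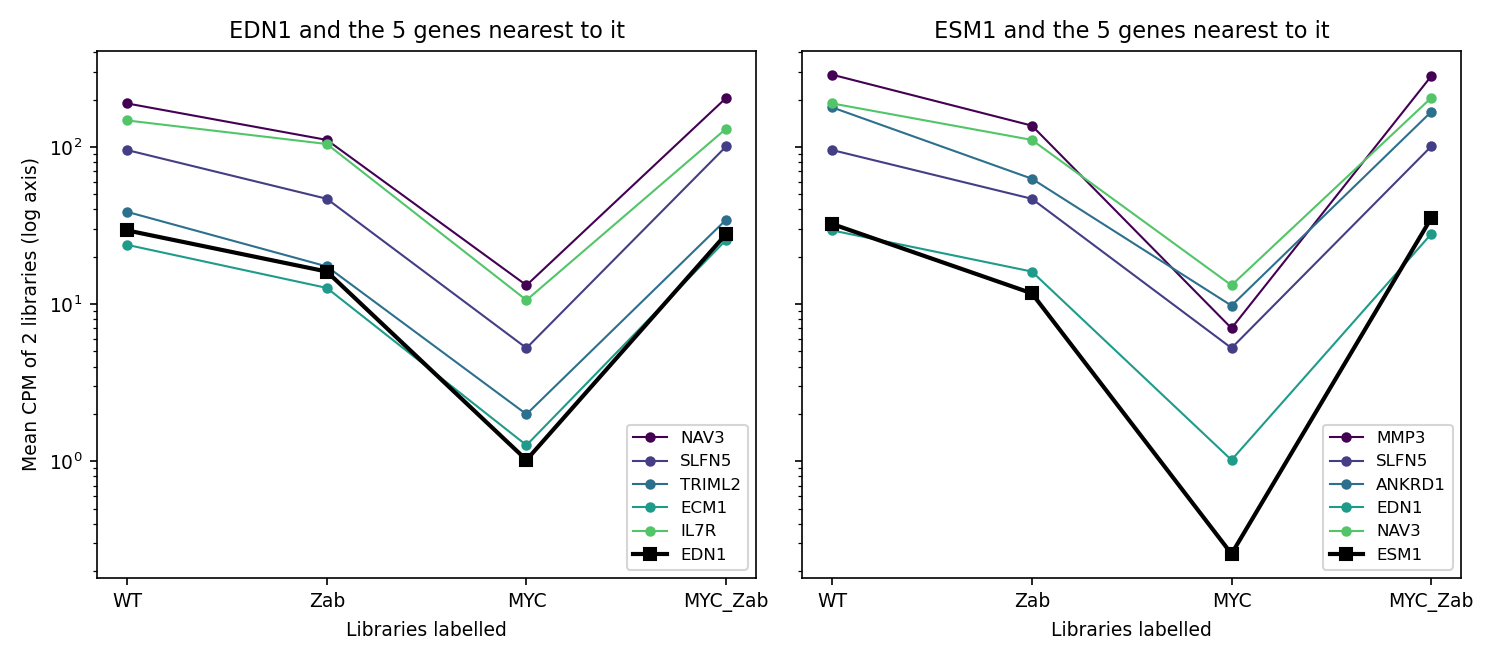
Mean CPM of the 2 libraries of each genotype, on a log axis, of EDN1 (left, black squares) and ESM1 (right, black squares) and of the 5 genes nearest to each. All are lowest in MYC, where EDN1 averages 1.02 and ESM1 0.258 CPM, lower in Zab than in WT, and back near the WT level in MYC_Zab.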

How the data were processed

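TT-seq was measured in 8 U2OS libraries, 2 in each of 4 genotypes. Tools listed by the submitters' processing notes are STAR, bedtools 2.29.2, SAMtools 1.11 and Trim Galore 0.6.6, beside the builds hg19 and dm6. Per the file headers, the authors counted reads on the opposite strand over RefSeq coding exons with HOMER, keeping 1 transcript per symbol in each library. For 10453 of 19414 genes every library kept one and the same transcript. The deposited values are a signal: whole reads times a factor per library (0.204 to 0.259). The sources used here do not give the basis of that factor, though a directory named in the headers holds a word for a spike-in. Exon length is a further column of the deposited files. Dividing by the factor gave whole reads for 99.96% to 100% of values, within 0.02 reads. Of values from 1 to 20 reads 77.2% to 82.7% were even.

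CPM were computed from the deposited signal with TMM scaling (edgeR 4.0.16), and log2(CPM + 1) was tested with limma 3.58.1 (eBayes with trend, R 4.3.3) on 11985 genes kept by filterByExpr at 10 reads. All 8 libraries entered 1 fit with a term per genotype and 4 residual degrees of freedom. A call is a Benjamini-Hochberg adjusted p under 0.05 over all genes kept. Fold changes on this scale understate those of low genes. A fold given as "-fold" is a ratio of mean CPM unless summed reads are named. Intervals of 95% cover counting error only. With 2 libraries against 2, an exact permutation cannot reach 0.05.

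The members and lists were chosen with earlier results of these data known. The named family genes are the 3 called genes of each role with the largest change in MYC over WT and in Zab over WT, among those averaging at least 5 CPM, and EDNRA, EDNRB, EGFR, FGFR1, PDGFRA, KDR and NRP1. Alternatives were library totals, the deposited scale, pseudocounts of 0.25 and 5, other filters, edgeR's quasi-likelihood test and DESeq2 1.42.0 on the recovered reads, a replicate block, fewer libraries, and the WT and MYC_Zab pairs as 1 sample each. The script was tested on simulated data.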

Additional observations from a re-analysis of the deposited data

Results flagged for a closer look

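For 5 of the 9 genes both libraries moved one way with MYC and the opposite way with MYC_Zab over Zab, as they did for 33.4% of all 11985 genes. The difference, MYC_Zab over Zab minus MYC over WT on the log2 scale, was 4.79 for EDN1, 6.26 for ESM1, -0.96 for VEGFA, 1.97 for VEGFC and 1.86 for AREG. These differences were not tested, since the MYC libraries were used to choose EDN1 and ESM1, and the libraries labelled MYC_Zab did not carry raised MYC.

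The same difference is given for 14 of the 16 tested family genes named in the report. These had an adjusted p under 0.05 for it in the limma fit, as 53.1% of all 11985 genes did. The named genes were chosen largely for large changes in MYC over WT or Zab over WT, which are terms of that difference. The choice thus favoured passing, so nothing is read from the count and the values are a description. It was 4.16 for NRG1, 3.14 for FGF1, 2.90 for FGF5, 2.08 for EGFR, 1.91 for PDGFRA, 1.68 for NRP1, 1.65 for RHBDF1 and 1.39 for PDGFC. It was below 0 for FGFRL1 at -2.06, FGFR4 at -2.02, PGF at -1.70, FGFR1 at -0.84, GPC1 at -0.48 and FURIN at -0.45.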

How the results depend on the processing

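Each count was recomputed under 11 alternatives and with each of the 8 libraries left out. The shares of all genes under these settings are not given here. The number of the 9 genes called in Zab over WT, 5, was 3 by DESeq2, 2 with the WT and MYC_Zab pairs as 1 sample each, and 2 to 5 with a library left out. In MYC_Zab over Zab, 4 became 8 on the deposited scale, 2 by DESeq2, 2 with the pairs as 1 sample each, and 2 to 5 with a library left out. In MYC_Zab over WT, 0 became 1 on the deposited scale. Family genes called in Zab over WT, 21, were 13 with the pairs as 1 sample each and 13 to 20 with a library left out. In MYC_Zab over Zab, 19 became 11 with the pairs and 12 to 20 with a library left out. In MYC_Zab over WT 0 became 6, and in MYC over Zab 19 became 32, on the deposited scale, where the median of all genes in MYC over Zab moved from 0.049 to 1.11. Apart from the scaling and the smaller number of samples, the cause was not tested.

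On the deposited scale Zab over WT changed sign for VEGFA (-0.22), EREG (-0.47), NRP1 (-0.052) and FGFR1 (-0.15). MYC_Zab over Zab changed for VEGFA (0.64), HBEGF (0.77), FGF2 (0.78), PDGFA (0.076), NRP1 (0.34), FGFR4 (0.27), PGF (0.054), FGFRL1 (0.14), GPC1 (0.30) and FGFR1 (0.35). MYC_Zab over WT changed for EDN1 (0.20), HBEGF (0.078), FGF2 (0.17) and PDGFA (0.21). With library totals EREG in Zab over WT was -0.073, and in MYC_Zab over Zab HBEGF was 0.12 and FGF2 0.14. By DESeq2 FGF2 in Zab over WT was 0.023.

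With 1 library left out, values that were not called crossed 0 within these ranges. In Zab over WT EREG ran from -0.27 to 0.49 and FGF2 from -0.15 to 0.14. In MYC_Zab over Zab HBEGF ran from -0.25 to 0.015, EREG from -0.00040 to 0.41 and FGF2 from -0.44 to 0.25. In MYC_Zab over WT EDN1 ran from -0.21 to 0.071, ESM1 from -0.17 to 0.46, AREG from -0.52 to 0.022, EREG from -0.062 to 0.70, FGF2 from -0.44 to 0.25 and PDGFA from -0.21 to 0.078.

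Same-numbered libraries did not deviate together (correlations -0.0218 to 0.00985), so the numbers give no pairing. With the replicate block the calls were 5, 4 and 0, as without it.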
